A study of Mus musculus with 19 samples.

Results

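The let-7 family was followed through its 5p arms, the strands cut from the 5′ side of the let-7 hairpins, in 3 tissues of high-active and low-active inbred mice. The members were the mouse probes whose names on the array were mmu-let-7a-5p, mmu-let-7b-5p, mmu-let-7c-5p, mmu-let-7d-5p, mmu-let-7e-5p, mmu-let-7f-5p, mmu-let-7g-5p, mmu-let-7i-5p and mmu-miR-98-5p, 9 of the 1079 mouse miRNAs that the array measured. They were chosen by name and not by their signal, and all 9 were detected on every one of the 19 arrays. High-active mice were C57L/J and low-active mice were C3H/HeJ. The mice were males by the study's account, 8 weeks old when housed alone with a locked running wheel, untreated, and 9 weeks old at harvest after 1 week. The groups were nucleus accumbens from 4 high-active and 3 low-active mice, soleus from 4 high-active and 2 low-active mice, and extensor digitorum longus (EDL) from 2 high-active and 4 low-active mice. The 19 arrays came from 8 mice, most of which gave several tissues. Each activity class was a single inbred strain, so that strain and activity cannot be told apart. The design text states that no biological replicates were used while the sample names carry different mouse numbers, so the p-values below measure the spread between these samples only.

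The let-7 miRNAs are among the most conserved small RNAs of animals. They were found in worms as timing factors of late development, they accumulate as cells differentiate, and in mammals the RNA-binding protein LIN28 blocks their maturation in early cells. A mature let-7 guides Argonaute to messenger RNAs through its seed, the bases next to its 5′ end, and lowers their output, with Hmga2, Ras genes and Lin28 itself among the textbook targets. Adult brain and adult skeletal muscle both keep high levels of the family.

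The 9 mature sequences are shown because the members share a seed and differ in only a few bases outside it, which is what the probes of the array have to tell apart. They are RefSeq sequences on GRCm38.p6, written 5′ to 3′ with the seed, bases 2 to 8, in capitals. All 9 members were matched.
mmu-let-7a-5p: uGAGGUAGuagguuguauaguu
mmu-let-7b-5p: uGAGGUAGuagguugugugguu
mmu-let-7c-5p: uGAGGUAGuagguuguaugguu
mmu-let-7d-5p: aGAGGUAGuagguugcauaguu
mmu-let-7e-5p: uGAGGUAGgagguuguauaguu
mmu-let-7f-5p: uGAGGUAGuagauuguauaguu
mmu-let-7g-5p: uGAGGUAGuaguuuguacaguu
mmu-let-7i-5p: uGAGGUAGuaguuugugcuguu
mmu-miR-98-5p: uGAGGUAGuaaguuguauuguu
Each was 22 bases long and carried the seed GAGGUAG, which 11 of 1679 mature mouse miRNAs of the RefSeq table had, the other two being mmu-let-7k and mmu-miR-1961.

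Counted from 1 at the 5′ end, with the let-7a base first, let-7e differed from let-7a by U9G alone, let-7c by A19G and let-7f by G12A. Let-7b differed by A17G and A19G, let-7d by U1A and U16C, let-7g by G12U and U18C, miR-98 by G11A and A19U, and let-7i by G12U, A17G, U18C and A19U. Of the 36 pairs of members, 4 were 1 base apart, and the most distant pair, let-7d and let-7i, was 6 bases apart. How far each probe also reads the relatives of its member was not tested.

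The mature strands come from several places in the genome, several of them shared with another member or with a miRNA of the miR-99/100 or miR-125 families. Let-7a (chr13:48538239-48538260, minus strand, the Mirlet7a-1 gene), let-7f (chr13:48537889-48537910, Mirlet7f-1) and let-7d (chr13:48536078-48536099) lie in a row, with 261 bases between the Mirlet7a-1 and Mirlet7f-1 hairpins and 1714 bases between those of Mirlet7f-1 and Mirlet7d. Let-7b (chr15:85707325-85707346, plus strand) lies 621 bases from Mirlet7c-2 (chr15:85706616-85706637), both within the span of the non-coding gene Lncppara. A further copy of let-7c, with the same mature sequence (chr16:77599672-77599693, Mirlet7c-1), lies 656 bases from Mir99a. Let-7e (chr17:17830366-17830387, plus strand) lies 367 bases from Mir125a, within the span of Spaca6. The other copy of let-7f (chrX:151912353-151912374, Mirlet7f-2) lies 785 bases from Mir98 (chrX:151913229-151913250), both within the span of Huwe1. Let-7g (chr9:106178846-106178867) lies within the span of Wdr82, and let-7i (chr10:122985698-122985719, minus strand) has no other miRNA of these families near it. Let-7a also has a further hairpin, Mirlet7a-2, on chromosome 9. Signal for let-7a, let-7c and let-7f is the sum over their copies, which an array cannot separate.

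Signals are given as log2 of the scanner's background-subtracted intensity after each array was scaled to a common 75th percentile, for which the 326 probes that every array detected were used. The 477 miRNAs found on at least 2 arrays were tested between tissues. Before scaling that percentile ranged over arrays between 1041.8 and 2239.6 in the nucleus accumbens, 856.3 and 1810.2 in soleus and 684.4 and 1893.8 in EDL, and 347 to 388 miRNAs were detected in nucleus accumbens, 263 to 341 in soleus and 237 to 332 in EDL. The dimmest array was the EDL array of low-active mouse 195. The tissue labels were checked against marker miRNAs. The summed log2 signal of 6 muscle miRNAs was 8.75 to 11.05 in the nucleus accumbens. In soleus it was 18.7 to 19.2 and in EDL 18.8 to 19.6. The sum of 6 brain miRNAs was 16.3 to 16.9 in the nucleus accumbens. It was 10.8 to 11.4 in soleus and 9.86 to 10.9 in EDL. Of these 6, all were detected on each brain array, 1 to 3 on a soleus array and 1 on each EDL array. The neuronal miR-124-3p was not detected on any muscle array, whereas miR-128-3p was detected on every one. Within the nucleus accumbens the highest muscle sum, 11.05, came from low-active mouse 197. The summed signal of 7 epithelial miRNAs ranged widely in that tissue, over 7.90 to 14.3 in high-active and 7.38 to 12.4 in low-active mice, against 7.23 to 7.96 in soleus and 7.21 to 8.47 in EDL. The tissues were analysed whole, so fewer cells that make a miRNA and less miRNA per cell cannot be told apart.

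Among the 9 members, 6 were higher in nucleus accumbens than in soleus and 8 were higher than in EDL (limma, adjusted p under 0.05), with none lower, under a scaling whose choice turned the direction of 6 members other than let-7e, let-7g and miR-98. The background was high, since 48.0% of the 477 miRNAs tested were higher and 32.1% lower against soleus, and 48.6% were higher and 28.3% lower against EDL. The median difference of the members was 0.36 on the log2 scale against soleus and 0.54 against EDL, beside 0.21 over all tested miRNAs in both comparisons. The size differed greatly between members. Let-7e stood apart with a difference of more than 2 on the log2 scale, miR-98 and let-7g followed with 0.76 to 0.95, and the other 6 lay between -0.00 and 0.63.

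Let-7e had log2 signals of 12.28, 12.12, 12.44 and 12.30 in nucleus accumbens of the high-active mice and of 12.69, 12.89 and 12.22 in that of the low-active mice. In soleus the values were 9.61, 9.89, 10.34 and 9.92 in high-active mice and 10.12 and 10.32 in low-active mice. In EDL they were 9.81 and 10.04 in high-active mice and 9.82, 9.85, 10.25 and 9.52 in low-active mice. Every brain array thus lay well above every muscle array, and soleus and EDL overlapped. The difference was 2.36 (SE 0.15) against soleus, a 5.14-fold higher signal (limma, adjusted p = 3.32e-10), and 2.55 (SE 0.15) against EDL, 5.86-fold (adjusted p = 1.3e-10). It was past the threshold whichever of the 19 arrays was left out, with values between 2.30 and 2.46 against soleus and between 2.42 and 2.65 against EDL. Within each of the 3 slides it ranged over 2.36 to 2.69 against soleus and 2.57 to 2.75 against EDL.

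**Figure D1:**
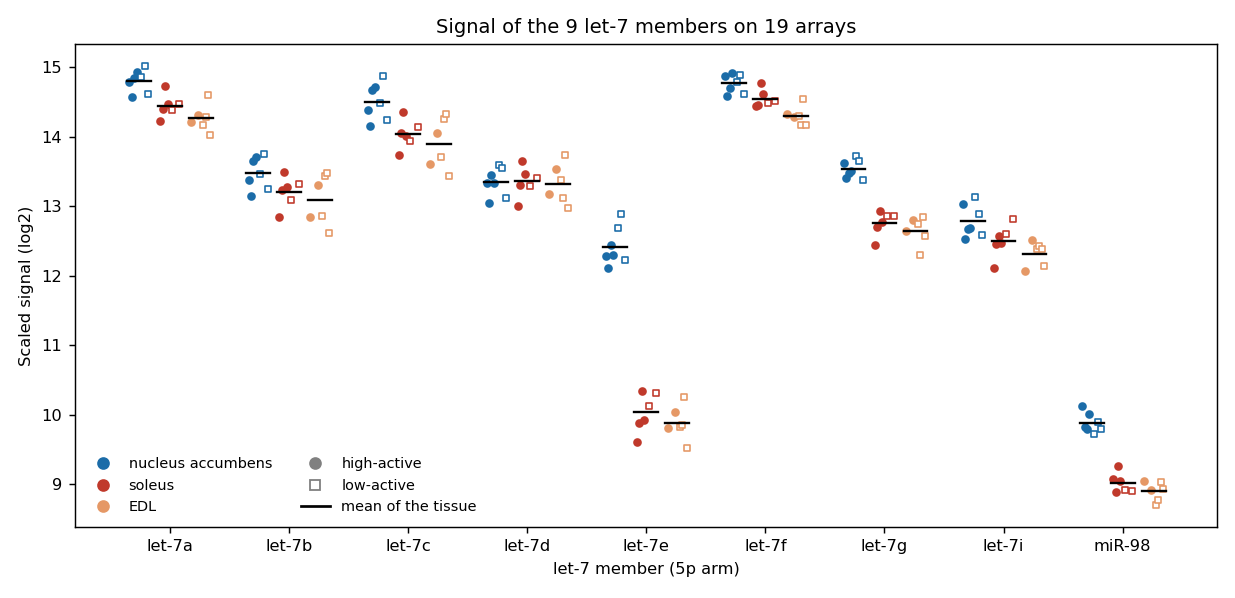
Scaled log2 signal of each let-7 member (horizontal axis) on each of the 19 arrays, by tissue (colour) and activity class (filled circles high-active, open squares low-active), with the mean of each tissue as a bar. Let-7e lies between 12.12 and 12.89 in nucleus accumbens, above its highest muscle array at 10.34, while let-7d overlaps between all 3 tissues under this scaling.

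MiR-98, a member that keeps a separate name, was the dimmest of the 9 probe signals in every tissue. Its log2 signal was 9.88 ± 0.14 in nucleus accumbens (SD, n = 7), 9.01 ± 0.14 in soleus (n = 6) and 8.90 ± 0.14 in EDL (n = 6). The lowest brain array, 9.72, was above the highest soleus array, 9.26, and the highest EDL array, 9.05. The difference was 0.89 (SE 0.08, 1.85-fold, limma adjusted p = 5.46e-08) against soleus and 0.95 (SE 0.08, 1.93-fold, adjusted p = 2.31e-08) against EDL. Let-7f-2, whose hairpin lies beside that of miR-98, cannot be set beside it because the let-7f probes also read Mirlet7f-1.

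Let-7g had a log2 signal of 13.54 ± 0.13 in nucleus accumbens (SD, n = 7), 12.76 ± 0.18 in soleus and 12.65 ± 0.20 in EDL (n = 6 each). Its lowest brain array, 13.38, was above its highest soleus array, 12.93, and EDL array, 12.84. The difference was 0.76 (SE 0.10, 1.69-fold, limma adjusted p = 4.86e-06) against soleus and 0.88 (SE 0.10, 1.84-fold, adjusted p = 9.65e-07) against EDL. Let-7i, 2 bases from let-7g, had 12.79 ± 0.23 in nucleus accumbens, 12.51 ± 0.23 in soleus and 12.32 ± 0.17 in EDL, a difference of 0.25 (SE 0.12, adjusted p = 0.0706) against soleus and 0.49 (SE 0.12, adjusted p = 0.00156) against EDL. The brain arrays of let-7i, from 12.53 up, overlapped soleus, which reached 12.82, and did not overlap EDL, which reached 12.51. With the mouse as a fixed replicate block the difference of let-7i against soleus passed the threshold (0.32, limma adjusted p = 0.0285), and with the mouse as a random block it did not. It also passed without the nucleus accumbens array of high-active mouse 224 (0.28, adjusted p = 0.0484) or of low-active mouse 197 (0.32, adjusted p = 0.025). With the slide as a fixed block it passed as well (0.37, limma adjusted p = 0.00259), as it did with the dimmer of its 2 probes (0.35, adjusted p = 0.00249). Without a block, the 7 scalings compared below called let-7i higher than in soleus in 0 cases and lower in 1.

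Let-7a and let-7f, which share a cluster on chromosome 13, gave the brightest signals. The log2 signal of let-7a was 14.81 ± 0.16 in nucleus accumbens, 14.45 ± 0.17 in soleus and 14.27 ± 0.20 in EDL, and that of let-7f was 14.77 ± 0.13 in nucleus accumbens, 14.55 ± 0.13 in soleus and 14.30 ± 0.14 in EDL (SD, n = 7, 6 and 6). Let-7a was higher in nucleus accumbens by 0.36 (SE 0.11, limma adjusted p = 0.00707) than in soleus and by 0.54 (SE 0.11, adjusted p = 0.000354) than in EDL. Let-7f was higher by 0.23 (SE 0.09, adjusted p = 0.0222) than in soleus and by 0.47 (SE 0.09, adjusted p = 0.000156) than in EDL. Brain and soleus overlapped for both members. Brain and EDL overlapped for let-7a, at 14.57 for the lowest brain array and 14.61 for the highest EDL array, and did not for let-7f, at 14.60 and 14.55. The call of let-7f against soleus was lost without the nucleus accumbens array of low-active mouse 195 (0.21, adjusted p = 0.0545) and without the soleus array of low-active mouse 194 (0.23, adjusted p = 0.0605) or 195 (0.24, adjusted p = 0.0541).

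Let-7d, the third member of that cluster and the one that differs from let-7a at its first base, did not differ between tissues beyond its spread under this scaling. Its log2 signal was 13.35 ± 0.21 in nucleus accumbens, 13.36 ± 0.21 in soleus and 13.32 ± 0.28 in EDL (SD, n = 7, 6 and 6), and the ranges of the 3 tissues, 13.05 to 13.59, 13.01 to 13.65 and 12.98 to 13.73, lay almost on top of each other. The difference was -0.00 (SE 0.14, adjusted p = 0.999) against soleus and 0.03 (SE 0.14, adjusted p = 0.858) against EDL. These values do not show that the levels are equal, since the choice of scaling moved them.

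Let-7b and let-7c, neighbours on chromosome 15 and 1 base apart, followed each other from array to array, with a Pearson correlation of 0.97 over the 19 arrays, the highest of the 36 pairs of members, given as a description of signals that share their arrays. Let-7c had a log2 signal of 14.51 ± 0.27 in nucleus accumbens, 14.04 ± 0.21 in soleus and 13.90 ± 0.36 in EDL (SD, n = 7, 6 and 6). Let-7b had 13.48 ± 0.24 in nucleus accumbens, 13.21 ± 0.22 in soleus and 13.09 ± 0.37 in EDL, and brain and muscle overlapped for both. Let-7c was higher in brain by 0.47 (SE 0.17, limma adjusted p = 0.0226) than in soleus and by 0.63 (SE 0.17, adjusted p = 0.00403) than in EDL. Its call against soleus was lost without the nucleus accumbens array of low-active mouse 195 (0.39, adjusted p = 0.0558) and without the soleus array of low-active mouse 194 (0.42, adjusted p = 0.0826). The difference of let-7b was 0.27 (SE 0.17, adjusted p = 0.153) against soleus and 0.39 (SE 0.17, adjusted p = 0.049) against EDL. Leaving out single arrays ended the call against EDL in 13 of 19 cases, with values between 0.28 and 0.50 and adjusted p between 0.024 and 0.217. These cases include soleus arrays, which do not enter this difference. Without that of high-active mouse 224 or 227 or low-active mouse 194 or 195 it stayed at 0.39, with limma adjusted p from 0.056 to 0.058. With the mouse as a fixed replicate block let-7b passed against both muscles (0.32, limma adjusted p = 0.0165, and 0.54, adjusted p = 0.00119). With the mouse as a random block let-7b passed against EDL only. With the slide as a fixed block let-7b passed against soleus too (0.46, limma adjusted p = 0.00576). Without a block, the 7 scalings compared below called let-7b higher than in soleus in 0 cases and lower in 1.

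The rise of the family as a whole depended on how arrays were set level. Under the scaling used above, 59.9% of the calls over all miRNAs were upward in nucleus accumbens against soleus and 63.2% against EDL. With the 75th percentile taken over all mouse probes these shares were 48.3% and 47.5%, and with the spike-in controls named hur alone they were 44.1% and 46.2%. Under both of these scalings the difference of let-7a, let-7b, let-7c, let-7d, let-7f and let-7i was below 0 in both comparisons, down to -0.71 for let-7d against soleus with hur controls. Some members were then called lower in nucleus accumbens. With all mouse probes these were let-7d (-0.57, limma adjusted p = 0.00318), let-7f (-0.33, adjusted p = 0.029) and let-7i (-0.32, adjusted p = 0.0153) against soleus and let-7d (-0.65, adjusted p = 0.00117) against EDL. With hur controls they were let-7d, let-7b and let-7f against soleus and let-7d against EDL. More miRNAs were detected in brain than in muscle, and the spike-in controls named dmr alone gave values above 0 for all 9 members. Let-7e was higher in nucleus accumbens under all 7 scalings, by 1.66 to 2.48 against soleus and by 1.83 to 2.92 against EDL, past the threshold each time. Let-7g (0.05 to 0.88 against soleus, 0.16 to 1.24 against EDL) and miR-98 (0.18 to 1.00 and 0.23 to 1.32) were above 0 under all 7 but did not pass under each.

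**Figure D2:**
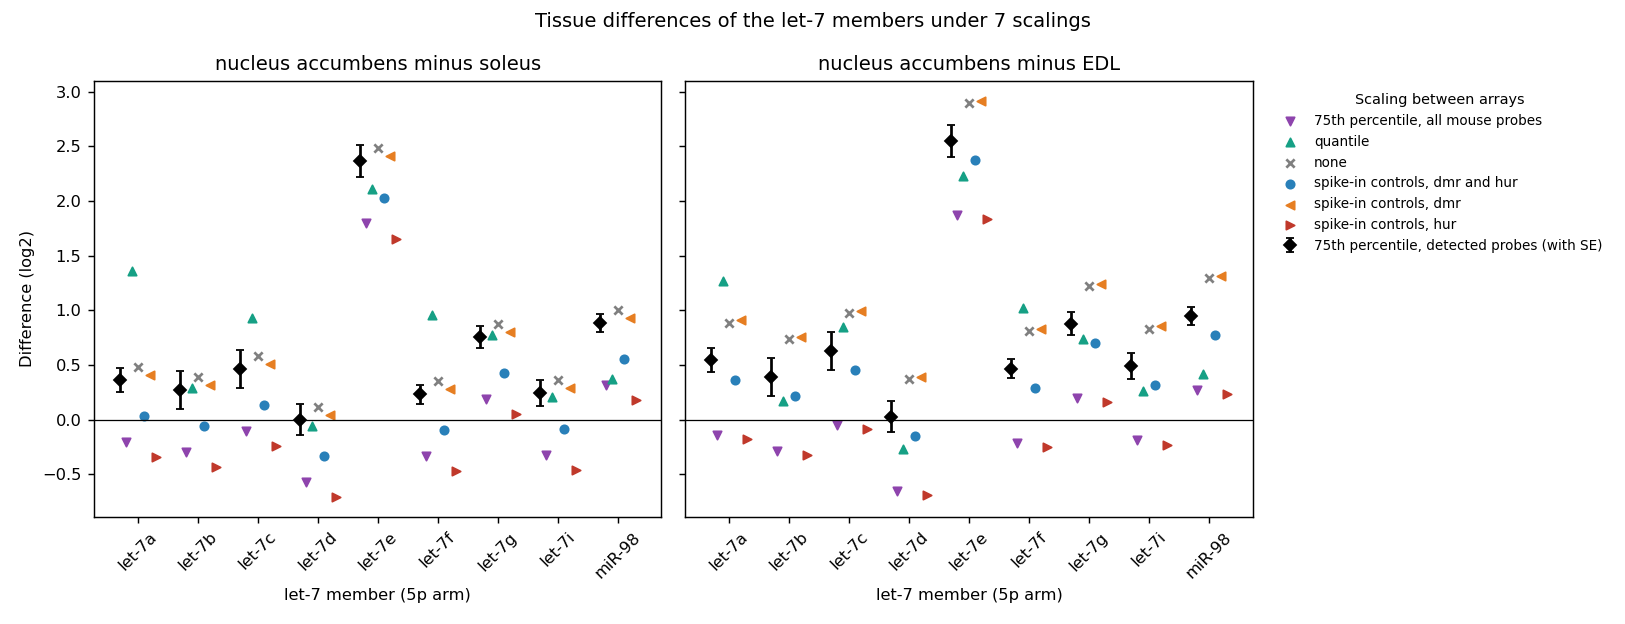
Difference in log2 signal of each member, nucleus accumbens minus soleus (left) and minus EDL (right), under 7 ways of scaling the arrays; black diamonds are the values used in the text, with the standard error of the limma fit. Let-7e lies between 1.66 and 2.92 throughout, whereas 6 members fall on either side of 0 depending on the scaling.

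A measure that no linear scaling can touch is the make-up of the let-7 signal on each array. The signals of the 9 brightest probes, one per member, were summed in linear units, and each member was given as a share of the sum. Probes differ in how brightly they report a molecule, so the order of the shares is an order of probe signals and not of molecules. Let-7a took 22.5% of the let-7 signal in nucleus accumbens, 22.9% in soleus and 22.6% in EDL, let-7f 22.0% in nucleus accumbens, 24.6% in soleus and 23.2% in EDL, and let-7c 18.3% in nucleus accumbens, 17.3% in soleus and 17.6% in EDL. The order of mean shares in brain was let-7a, f, c, g, b, d, i, e and miR-98, and in both muscles it was let-7f, a, c, d, b, g, i, e and miR-98. Neighbours such as let-7a and let-7f overlapped in every tissue, as did let-7b and let-7d in brain.

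Let-7e took 4.32 ± 0.52% of the let-7 signal in nucleus accumbens (SD, n = 7), with a range of 3.66 to 5.11%, against 1.08% in soleus (0.95 to 1.25%) and 1.08% in EDL (1.01 to 1.12%). No brain array came near a muscle array. The share of let-7d was 8.19% in nucleus accumbens (7.53 to 9.16%), against 10.8% in soleus (10.1 to 11.4%) and 11.7% in EDL (9.86 to 12.7%), again without overlap and in the other direction. Let-7g took 9.36% in nucleus accumbens (8.49 to 10.1%), against 7.11% in soleus (6.68 to 7.88%) and 7.40% in EDL (5.59 to 8.42%). The lowest EDL shares of both let-7d and let-7g came from the dim array of low-active mouse 195, on which let-7b and let-7c took their highest EDL shares, 12.4% and 21.7%.

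Set against let-7a, from which it differs by a single base, the signal of let-7e was 19.2% of that of let-7a in nucleus accumbens (16.0 to 22.8%), against 4.71% in soleus (4.06 to 5.58%) and 4.78% in EDL (4.40 to 5.17%). Let-7d was 36.5% of let-7a in nucleus accumbens (33.0 to 41.5%), against 46.9% in soleus (43.0 to 49.9%) and 52.0% in EDL (44.2 to 58.3%). Neither ratio overlapped between brain and muscle, though that of let-7d came close. MiR-98 was 3.31% of let-7a in nucleus accumbens, against 2.31% in soleus and 2.43% in EDL.

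**Figure D3:**
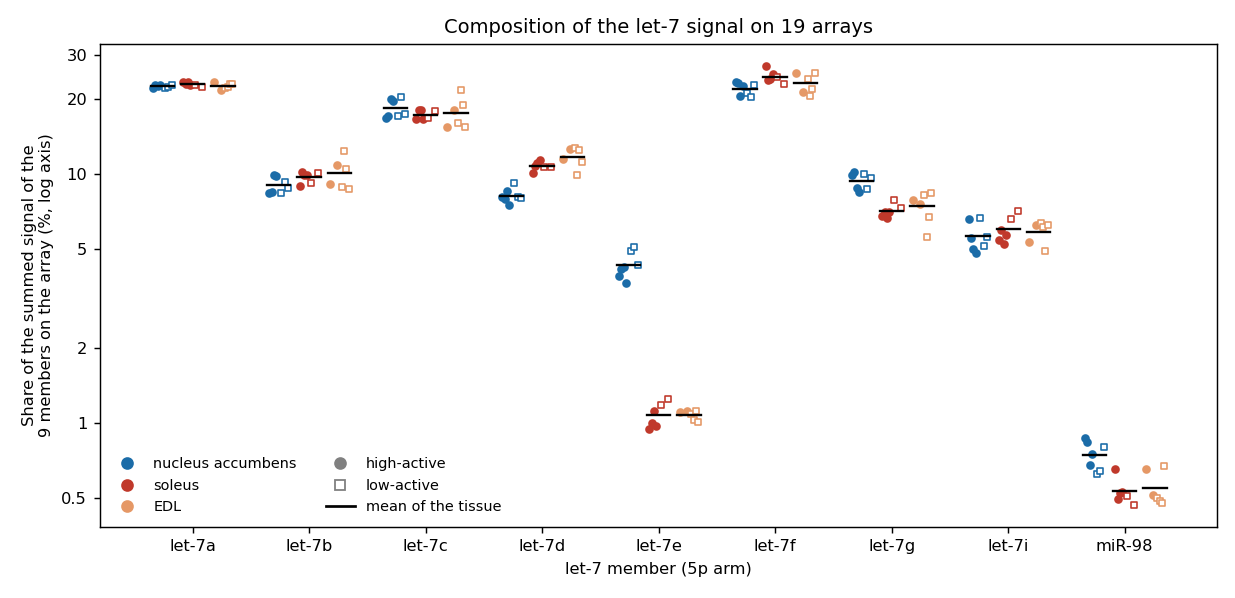
Share of each member in the summed linear signal of the 9 members on each array (log axis, percent), by tissue and activity class, with the tissue mean as a bar. Let-7e makes up 3.66 to 5.11% in nucleus accumbens and 0.95 to 1.25% in muscle, and let-7d is the one whose brain share lies below all of its muscle shares.

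The same contrast was tested by subtracting the mean log2 signal of the 9 members from every miRNA on each array and refitting all 477. Relative to the family, let-7e was higher in nucleus accumbens by 1.74 (SE 0.08, limma adjusted p = 1.86e-12) than in soleus and by 1.78 (SE 0.08, adjusted p = 1.51e-12) than in EDL. Let-7d was lower by that measure, with -0.62 (SE 0.08, adjusted p = 2.68e-06) against soleus and -0.74 (SE 0.08, adjusted p = 3.75e-07) against EDL. Both calls held in every alternative run, with let-7e between 1.34 and 1.84 against soleus and 1.48 and 1.93 against EDL, and let-7d between -0.82 and -0.57 and between -1.01 and -0.70. In all, 2 members were higher and 5 lower against soleus, beside 34.6% and 52.8% of all miRNAs, and 1 was higher and 5 lower against EDL, beside 31.4% and 55.1%. The relative call of miR-98 against soleus (0.26, adjusted p = 0.0404) was lost without any of 9 single arrays, and that of let-7i against EDL (-0.28, adjusted p = 0.0151) without the EDL array of high-active mouse 227 (-0.23, adjusted p = 0.0866).

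These relative values add up to about 0 over the members, so that the size of let-7e alone pushes the others down. Taken instead against the mean of the 8 members other than let-7e, without a test, let-7e was 1.96 higher against soleus and 2.00 higher against EDL, and let-7d stood at -0.40 and -0.52. For every member but let-7e, that mean included the member itself, which draws its value towards 0. Let-7g stood at 0.36 and 0.33 and miR-98 at 0.48 and 0.40. Let-7a, let-7b, let-7c, let-7f and let-7i lay between -0.17 and 0.08. Within a family that shares its seed, the brain arrays thus held relatively more let-7e and less let-7d, while let-7a and let-7f of the let-7d cluster lay within 0.17 of the mean of those 8. Under quantile normalization, which is not linear, the difference relative to the mean of the 9 was instead 0.59 against soleus and 0.52 against EDL for let-7a (limma adjusted p = 0.000199 and 0.000541), 0.28 against EDL for let-7f (adjusted p = 0.0302), and -0.40 and -0.33 for miR-98.

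Between the muscles, of which soleus has more slow fibres than EDL, no member passed the threshold (limma). Beside that, 7.13% of all miRNAs were higher and 8.39% lower in soleus. Of those calls 45.9% were upward, against 33.3% with the percentile over all mouse probes, 81.8% with the spike-in controls and 96.6% with no scaling. All 9 differences were above 0, between 0.03 for let-7d and 0.25 for let-7i, with a median of 0.16 against 0 over all miRNAs, but the shared sign depended on the scaling. With quantile normalization let-7a, let-7b, let-7c, let-7d and let-7g were below 0, down to -0.21 for let-7d, and with all mouse probes let-7d (-0.082) and miR-98 (-0.046) were. Let-7f came closest, with 14.55 ± 0.13 in soleus and 14.30 ± 0.14 in EDL (SD, n = 6 each), a difference of 0.23 (SE 0.09, limma adjusted p = 0.11), and was the only member with an unadjusted p under 0.05. Its soleus arrays, from 14.44 up, overlapped EDL, which reached 14.55. With the mouse as a fixed replicate block let-7f passed (0.30, limma adjusted p = 0.0395), and with the mouse as a random block it did not. It also passed without the EDL array of low-active mouse 196 (0.28, adjusted p = 0.0375) and when all 1079 miRNAs were tested (0.23, adjusted p = 0.0346). Relative to the mean of the members, none passed in either direction, beside 3.98% of all miRNAs higher and 12.6% lower, and the differences ran between -0.12 for let-7d and 0.10 for let-7i. Let-7e, the member with the largest brain difference, had 10.03 ± 0.28 in soleus and 9.88 ± 0.25 in EDL.

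The comparison of high-active with low-active mice, the one the study was built on, was made within each tissue, with arrays scaled within that tissue. No member passed in any tissue (limma), and none had an unadjusted p under 0.05. The background was low as well, with 6.48% of 386 miRNAs called in nucleus accumbens, 0.890% of 337 in soleus and 0.310% of 323 in EDL. The calls in nucleus accumbens were upward in 16.0% of cases, against 59.4% with the percentile over all mouse probes, and those in soleus in 33.3%, against 2.00% with no scaling. The 9 differences lay between -0.28 and 0.17 in nucleus accumbens, between -0.23 and 0.23 in soleus and between -0.11 and 0.11 in EDL. With no scaling the median over all tested miRNAs was 0.25 in nucleus accumbens and -0.68 in soleus, against -0.1 and 0 as reported. Other settings, no scaling and left-out arrays included, moved the differences of the members as far as 0.55 for miR-98 in nucleus accumbens. In soleus they went to -0.96 for let-7i and -0.93 for let-7e, and in EDL to -0.27 for let-7c. Over all these settings an unadjusted p under 0.05 arose in 3 cases in nucleus accumbens, 9 in soleus and 0 in EDL, and no adjusted p passed. With 2 to 4 mice a group the standard errors ran to a similar size, so differences of this order were not detectable.

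The differences furthest from 0 belonged to let-7e, miR-98 and let-7i. Let-7e was -0.28 in high-active against low-active mice in nucleus accumbens (SE 0.21, limma adjusted p = 0.47). It was -0.49 without the array of low-active mouse 197 (adjusted p = 0.197) and -0.077 without that of low-active mouse 195 (adjusted p = 0.872). Within slides it was -0.42 on slide 2 (1 high-active and 1 low-active array) and 0.055 on slide 3 (3 and 1). Every member was below 0 on slide 2 and above 0 on slide 3 in that tissue. On the scale of all 19 arrays the let-7e signal in nucleus accumbens was 12.12 to 12.44 in high-active mice and 12.22 to 12.89 in low-active mice, and the groups overlapped. The array at 12.22 was that of low-active mouse 197, which also had the highest muscle marker sum and an epithelial sum of 12.4, against 7.38 and 7.49 in the low-active mice 194 and 195. Among high-active mice the epithelial sum was lowest, 7.90, in mouse 224, which had the lowest let-7e signal, 12.12. It was 13.1 in mouse 225, which had the highest let-7e signal, 12.44, and 14.3 and 13.9 in mice 223 and 227. The part of these markers in the result was not tested. The difference of miR-98 was 0.17 in nucleus accumbens, 0.23 in soleus (SE 0.10, adjusted p = 0.328) and 0.11 in EDL. Its sign was not the same in every setting, since other settings took it between -0.50 and 0.45 in soleus. Unscaled, however, all soleus miRNAs tested had a median strain difference of -0.68, against 0 under the scaling used. Within single slides miR-98 stayed above 0 in soleus, at 0.37 on slide 1 and 0.16 on slide 2. Leaving out the EDL array of low-active mouse 195 took its difference to -0.038 in EDL. In soleus, after scaling within the tissue, its groups did not overlap, at 8.88 to 9.15 in high-active mice and 8.74 to 8.86 in low-active mice, and they did overlap when all 19 arrays were scaled together. Let-7i was -0.23 in soleus (SE 0.17, adjusted p = 0.55). No strain difference of a member was found to vary between the tissues, with adjusted p from 0.796 up in a moderated F test beside 7.34% of all miRNAs called.

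**Figure D4:**
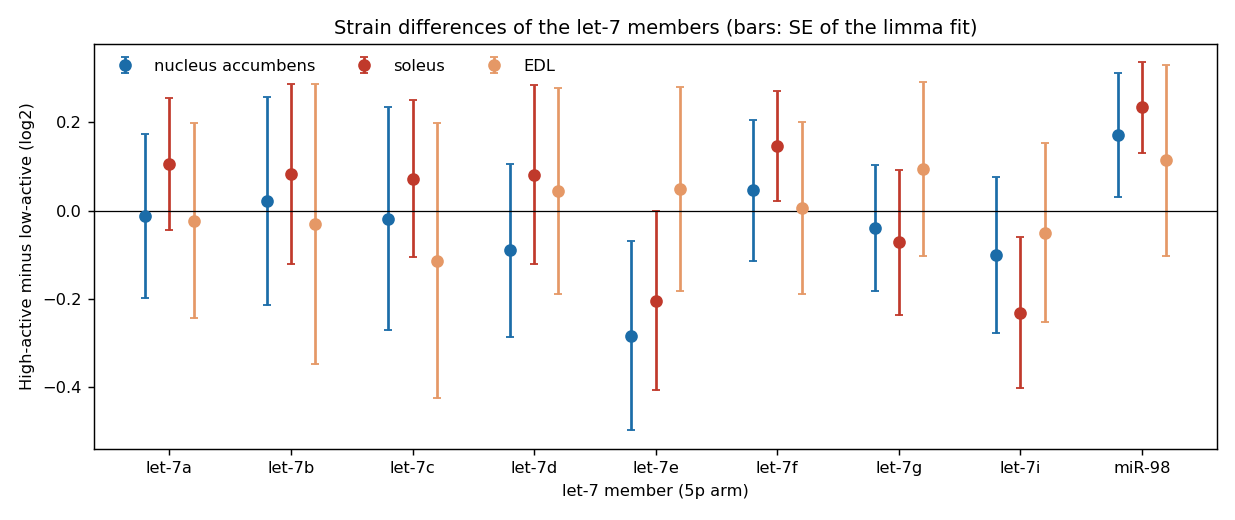
Difference in log2 signal between high-active and low-active mice for each member in nucleus accumbens, soleus and EDL, with the standard error of the limma fit. All 27 values lie between -0.28 and 0.23, and none passed the threshold.

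Each member was read by 2 probes, each printed 20 times. Of the 6840 spots over all arrays, 432 were left out as outliers by the scanner software, 0 of the 6408 kept were saturated, and the spots of a probe had a median coefficient of variation of 4.92%. The brightest members owed their range to a second scan. The signal of let-7a came from the low-gain scan on 100% of its spots in nucleus accumbens, 72.9% in soleus and 49.1% in EDL, that of let-7f on 100% in nucleus accumbens, 84.1% in soleus and 55.9% in EDL, and that of let-7c on 99.2% in nucleus accumbens, 28.3% in soleus and 1.75% in EDL. For let-7g it supplied 8.33% of the spots in nucleus accumbens and 0% in both muscles. For let-7e, let-7d, let-7b, let-7i and miR-98 no spot of the probe used came from it. Whether the change of scan moved the tissue differences of let-7a, let-7c, let-7f and let-7g was not tested. The dimmer probe of each member gave tissue differences within 0.21 of those of the brighter probe, the widest gap being let-7e against soleus, at 2.58 and 2.36. Signs differed only for let-7d, at 0.13 with the dimmer and -0.00 with the brighter probe against soleus, and at -0.03 and 0.03 in soleus against EDL.

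The miRNAs that share transcripts or clusters with let-7 hairpins were followed as a list of 5, miR-99a-5p, miR-99b-5p, miR-100-5p, miR-125a-5p and miR-125b-5p. In nucleus accumbens 4 of the 5 were higher than in each muscle and none was lower, beside the 48.0% and 48.6% of all miRNAs that were higher, with medians of 1.38 against soleus and 1.42 against EDL, and none passed between the muscles or the strains. MiR-125b-5p, the brightest, had log2 signals of 15.38 in nucleus accumbens, 13.85 in soleus and 13.99 in EDL (differences of 1.51 and 1.42, SE 0.13 each, limma adjusted p = 2.22e-08 and 5.03e-08). MiR-99a-5p, which precedes Mirlet7c-1 on chromosome 16, had 11.88 in nucleus accumbens, 11.44 in soleus and 11.47 in EDL (differences of 0.40 and 0.37, adjusted p = 0.00059 and 0.00137), beside 0.47 and 0.63 for let-7c, both of whose copies are read by the same probes. MiR-125a-5p, the neighbour of let-7e, differed by 2.25 against soleus and 2.36 against EDL (SE 0.10 each), beside 2.36 and 2.55 for let-7e. MiR-99b-5p differed by 1.38 against soleus and 1.46 against EDL (SE 0.12 each), less than either. MiR-100-5p, in the span of the host gene that also covers Mirlet7a-2, differed by 0.20 against soleus and -0.12 against EDL and did not pass.

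Of the other miRNAs detected on all 19 arrays, 174 in number, the profiles most like the mean of the 9 members were those of miR-99b-5p (Pearson 0.96), miR-125b-5p (0.95), miR-103-3p (0.94), miR-107-3p (0.94) and miR-128-3p (0.93), and the least like were miR-199b-5p (-0.91) and miR-1a-3p (-0.91). These values describe 19 points that fall into brain and muscle. Averaged within tissues they were 0.86, 0.86, 0.76, 0.71 and 0.66 for the first 5 and -0.33 and -0.12 for the last pair. Among the members, pairs correlated with a median of 0.76 over all arrays, between 0.08 for let-7d with miR-98 and 0.97 for let-7b with let-7c.

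The opposite arms of the same hairpins, the 3p strands that are usually discarded, were near the limit of the array. Of 11 let-7 3p arms on the array, 8 were not detected by their own spots. Let-7d-3p, whose sequence is printed because its deposited signal could be mistaken for abundance, was found on the most arrays among the 3 that were.
mmu-let-7d-3p: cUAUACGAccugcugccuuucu
It has another seed, in capitals, and lies at chr13:48536024-48536045 on the minus strand (GRCm38.p6, RefSeq). It was detected on 18 arrays, with log2 signals of 5.06 ± 0.10 in nucleus accumbens, 5.09 ± 0.53 in soleus and 5.17 ± 0.36 in EDL, differences of 0.11 against soleus and -0.14 against EDL that did not pass. Let-7a-1-3p was detected on 12 arrays, 7 of them brain, and was higher in nucleus accumbens by 1.19 than in soleus (limma adjusted p = 3.13e-05) and by 1.21 than in EDL (adjusted p = 2.84e-05). Its mean signals of 5.83 in nucleus accumbens, 4.64 in soleus and 4.55 in EDL stood beside a floor of 4.41, and most muscle arrays were at that floor. Let-7e-3p, whose 5p partner had the largest brain difference, was detected on the 7 brain arrays, at 5.57 ± 0.10, and was not well above background on any muscle array.

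The signal per miRNA that the scanner software deposits gave another picture of these arms. For the 9 members it equalled the total of their own probes, within 0.01%, on all 19 arrays. Of the 11 3p arms, the software called 5 detected, and for none of these did it equal the total of the arm's own probes. The rest were not called detected by the software on any array, so nothing was compared for them. The own probes of let-7d-3p summed to 5.77 to 15.57 units, while the software signal was 4722 to 20272.4 and equalled that sum plus the total of let-7c-5p on all 19 arrays. In the same way let-7e-3p carried the total of let-7d-5p on 7 arrays, let-7c-1-3p that of let-7b-5p on 7 arrays and let-7i-3p that of let-7g-5p on 1 array. Let-7a-1-3p carried the total of the bright corner control spots on 16 arrays. The levels given here for 3p arms therefore come from their own spots.

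**Figure D5:**
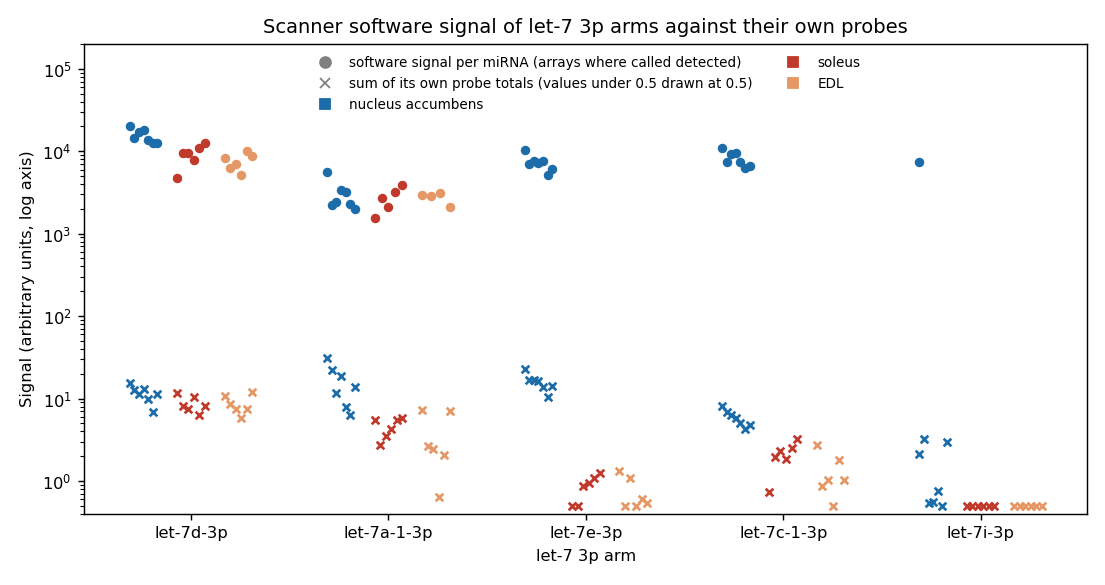
Software signal per miRNA (circles, arrays where it was called detected) and the sum of the arm's own probe totals (crosses), both in scanner units on a log axis, for the 5 let-7 3p arms with a software detection, by tissue. For let-7d-3p the software signal is 4722 to 20272.4, whereas its own probes sum to 5.77 to 15.57.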

How the data were processed

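Total RNA of nucleus accumbens, soleus and EDL was labelled with Cy3 and hybridised by the authors to one-colour Agilent mouse miRNA arrays. They chose samples by RNA quality and left some arrays out for uneven signal, and their Feature Extraction software subtracted the background, merged a high-gain and a low-gain scan and marked outlier spots. The deposited scanner files hold an intensity per spot (45440 spots, 2889 probes per array). A table of log2 values was also deposited by the authors, centred at a median of 0 within each tissue. It served only as an alternative within tissues, where the 9 members followed their probe totals within 0.05.

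Spots of a probe were averaged without outliers, control spots were left out, each array was scaled to the same 75th percentile over probes detected on all arrays compared, low values were set to a floor (21.2 units between tissues), and the brightest probe stood for a miRNA. A miRNA was called detected where over 50% of the spots of a probe were well above background. Strains were scaled and tested within a tissue (floors 24.8, 24.9 and 18.9 units for nucleus accumbens, soleus and EDL). Group means were fitted with limma 3.58.1 in R 4.3.3 (lmFit, eBayes) with Benjamini-Hochberg adjustment over all miRNAs tested and a threshold of 0.05. Tissue differences came from 1 fit of the 6 groups and weigh both strains equally. The fits were also run on simulated data with known changes. The simulated arrays were independent and were not scaled, so that run does not bear on the scaling or on tissues that share a mouse.

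Mouse numbers in the sample names link tissues of the same animal, which is where the pairing comes from. Deviations from the group means correlated above 0.1 in 6 of 15 same-mouse pairs (range -0.495 to 0.533), and the correlation within mice was 0.0897. Alternatives were other scalings (all mouse probes, quantile, none, 8 spike-in controls), normexp background correction with an offset of 50 (on median signals, as the files have no mean signal), the other probe, the mean of probes, other filters, the software signal, the mouse or slide as a block, each strain alone, each slide alone and each array left out. Scaling to the dmr or hur spike-in controls alone, leaving out a pair of arrays together, and fitting values relative to the members' mean were added after seeing the data. The members and lists were chosen with earlier results of these data known. Named beyond the members are the 5 miRNAs with the highest and the 2 with the lowest correlation with their mean, and the 2 brightest of each list. MiR-125a-5p, miR-100-5p and let-7e-3p fall outside that rule and were named after their values were seen. Precision is limited by the number of arrays.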

Additional observations from a re-analysis of the deposited data

Results flagged for a closer look

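In 4 of 54 groups of 4 arrays examined, 1 array lay far from the other three. Chance alone gives about 1 in 20. Let-7f relative to the mean of the 9 members was lowest in nucleus accumbens of high-active mouse 225, at 1.41 on the log2 scale, with the others at 1.55 to 1.57. Let-7i relative to that mean was lowest in EDL of low-active mouse 196, at -0.42, with the others at -0.13 to -0.07. The log2 signal of let-7i itself was lowest in EDL of low-active mouse 197, at 12.14, with the others at 12.38 to 12.43. In the same array miR-98 relative to the member mean was highest, at -3.34, with the others at -3.77 to -3.74.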

How the results depend on the processing

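Of 2925 values of single members under an alternative, 2555 stayed the same, 76 lost a call, 15 gained one, 234 changed sign without a call and 27 turned round with a call on at least one side. Staying the same meant keeping direction and side of the threshold. For the 135 values within single slides, which have no test, it meant lying within the larger SD of the compared groups, and 18 did not. For the strain difference between tissues only the side of the threshold counted. With the percentile over all mouse probes, nucleus accumbens minus EDL became -0.14 for let-7a, -0.29 for let-7b, -0.05 for let-7c, -0.65 for let-7d, -0.21 for let-7f and -0.19 for let-7i, and minus soleus -0.20 for let-7a, -0.10 for let-7c, -0.33 for let-7f and -0.32 for let-7i. With hur controls alone it was -0.18 for let-7a, -0.33 for let-7b, -0.089 for let-7c, -0.69 for let-7d, -0.25 for let-7f and -0.23 for let-7i against EDL, and -0.34 for let-7a, -0.43 for let-7b, -0.24 for let-7c and -0.47 for let-7f against soleus. With all spike-in controls let-7f was -0.097 against soleus. The median of all tested miRNAs in nucleus accumbens against soleus was 0.21 as reported, -0.11 with all mouse probes and -0.19 with hur controls. Relative to the member mean, quantile normalization turned let-7a (0.52 against EDL, 0.59 against soleus), let-7f (0.28 and 0.19) and miR-98 (-0.33 and -0.40). The cause was not tested.

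Members called between nucleus accumbens and soleus, 6 in the report, numbered 3 with dmr controls, 3 with high-active arrays only, 2 with all spike-in controls, 5 with all mouse probes (2 higher, 3 lower), 4 with hur controls (1 higher, 3 lower) and 4 to 7 with single arrays left out. Against EDL, 8 in the report, they numbered 2 with all mouse probes and 2 with hur controls (1 higher and 1 lower each), 3 with all spike-in controls, 5 with high-active arrays only and 7 or 8 with arrays left out. Between soleus and EDL, 0 in the report, they numbered 1 with the mouse as a fixed replicate block, 1 without a filter and 0 or 1 with arrays left out. With the mouse as a fixed replicate block 8 were called against soleus and 8 against EDL, and with the slide as a fixed block the same. The dimmer probe gave 7 against each muscle, and the mean of the probes 7 against soleus. Against soleus, no scaling and the software signal gave 4 each, and low-active arrays only gave 5. The mouse as a random block changed no count. The strain comparisons and their difference between tissues stayed at 0 calls in every alternative. Values within single slides, 135 in all, are values without a count of calls. With 2 arrays in the smallest groups, strain differences of the size of the standard errors given, and larger ones too, could go undetected. MiR-98 in soleus, at 0.23 with a standard error of 0.10, had a limma adjusted p of 0.328.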
